A study of Gallus gallus with 9 samples.

Results

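In chicken liver, 93 of 13949 listed protein-coding genes were abundant at each of the 3 ages studied, embryonic day 13, 5 weeks and 42 weeks, and stayed within a log2 difference of 1 between any of these ages. They were selected on their expression levels: the mean had to reach 100 FPKM at each age, and the mean log2 values of the 3 ages had to differ by less than 1 in every pair. FPKM counts sequenced fragments relative to transcript length and to the library's mapped total, and all log2 values are log2(FPKM + 1). At or above 100 FPKM at every age there were 267 genes, so that 174 of them differed by at least 1 between some pair of ages. Among all listed genes 8242 met the second condition, nearly all of them below 100 FPKM at some age. Because levels and differences between ages chose the 93 genes, both are described below without a test.

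Liver was sampled at embryonic day 13 (stage label Embryonic), 5 weeks (Rapid growth) and 42 weeks (Adult and aged), with 3 biological replicates at each age and 9 libraries in all. No treatment or mutation is named, and the labels name neither sex nor breed. The libraries were made from total liver RNA, in which fewer cells of a type and less RNA per cell cannot be told apart. In most genes the third 42-week library lay above both other libraries of its age, and values that it moves are also given without it.

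The chick embryo's liver already secretes plasma proteins while it grows. After hatching it is the bird's main site of fatty acid synthesis, and in laying hens it also makes the precursors of egg yolk. Genes abundant in an organ at every age commonly serve protein synthesis, energy supply, the cytoskeleton or the organ's lasting secretory work. Which of the 93 genes do so could not be read from these data, since the table carries Ensembl identifiers alone and 0 of them matched the symbols of the chicken reference table. Genes are therefore named by identifier, with no function or position, and liver markers could not be checked.

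**Figure D1:**
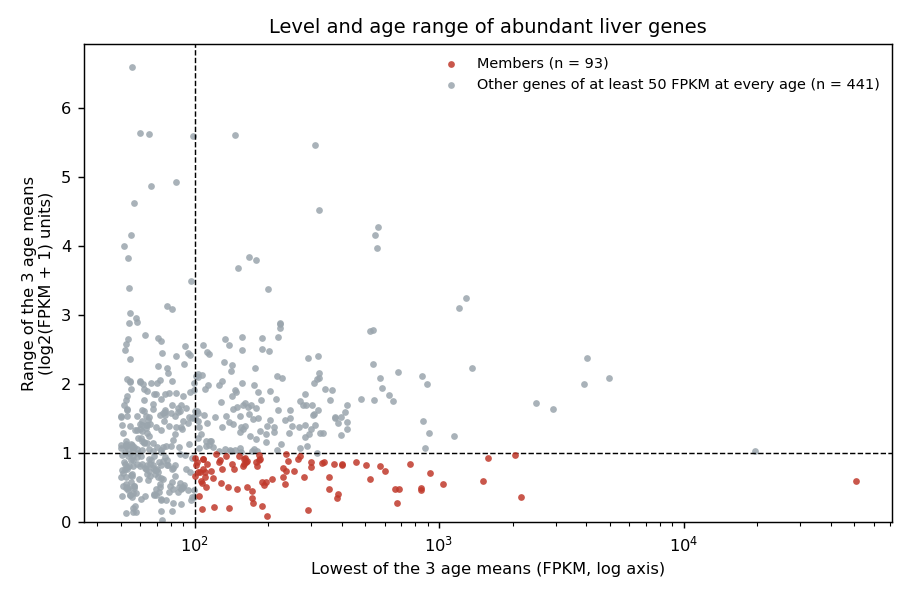
Each point is a gene with at least 50 FPKM at every age; the x axis is the lowest of its 3 age means in FPKM (log axis) and the y axis the range of its 3 age means in log2(FPKM + 1) units. The 93 members lie right of 100 FPKM and below a range of 1 (dashed lines), with 1 member far to the right of all others.

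The 93 genes spanned a wide range of levels, and a single one stood far above the rest. Their age means ran from 100.3 to 66962 FPKM at embryonic day 13, from 101.02 to 71196 FPKM at 5 weeks and from 100.8 to 50586 FPKM at 42 weeks. The medians were 289, 249 and 222 FPKM at these ages, so most members sat within a few-fold of the lower limit. A mean over the 9 libraries under 300 FPKM was found for 55 of them. An age mean of 1000 FPKM or more was reached by 11 members at some age and by 6 at every age, out of 16 genes of the table that reached it at every age. Within single libraries the median rank of the members among all listed genes, counted from the most abundant, lay between 189 and 237. The lowest-ranked member stood at 451 to 708, depending on the library.

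Membership rests on means, and single libraries varied more. In all 9 libraries 71 members were at or above 100 FPKM, while the other 22 dipped below it in at least 1 library, the lowest value being 58.6 FPKM in the second 42-week library. The range of the 3 age means was 0.74 log2 units at the median, from 0.09 to 0.99. It was under 0.5 in 20 members and at least 0.75 in 44, so that many members lay nearer to the limit of 1 than to no change. Without the third 42-week library the median range of the 93 genes was 0.80, with 15 under 0.5 and 56 at 0.75 or more. Over single libraries the range between the highest and the lowest value was 1.22 log2 units at the median of the members, and it was 2.19 in the most variable one.

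ENSGALG00000035219 was the most abundant member and, in 7 of the 9 libraries, the most abundant gene of the whole table. It had 54833, 71678 and 74376 FPKM in the embryonic libraries, 66163, 68532 and 78893 FPKM at 5 weeks, and 35743, 35579 and 80437 FPKM at 42 weeks. The first and second 42-week libraries lay below all others, and the third lay above all others, so the 42-week libraries bracket those of the earlier ages. In the first and second 42-week libraries it ranked 2. Fitted log2 differences were 0.10 for 5 weeks minus day 13 and -0.60 for 42 weeks minus 5 weeks, each with an SE of 0.49. This SE pools the 3 ages, whose SDs were 0.24, 0.13 and 0.68 log2 units at day 13, 5 weeks and 42 weeks. For 5 weeks minus day 13 it thus also holds the wide spread at 42 weeks. Without the third 42-week library the difference from 5 weeks was -0.99, just inside the limit of the rule.

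The second most abundant member, ENSGALG00000006629, was highest at 5 weeks. It had 2533, 2169 and 2525 FPKM at embryonic day 13, 4275, 3709 and 3908 FPKM at 5 weeks, and 2492, 1946 and 1687 FPKM at 42 weeks. All 5-week libraries lay above all libraries of the other ages, and the 42-week and embryonic libraries overlapped. Its range of 0.97 log2 units is among the 3 widest that the rule allows, and its log2 difference for 42 weeks minus 5 weeks was -0.97 ± 0.24 (SE).

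ENSGALG00000030255, next in abundance, had close age means with the third 42-week library counted and less close ones without it, as its 42-week libraries spread. It had 2419, 3209 and 2311 FPKM at embryonic day 13, 2323, 2232 and 2281 FPKM at 5 weeks, and 1353, 1969 and 3175 FPKM at 42 weeks. The 5-week libraries lay close together, inside the range of the 42-week ones, and the range of the 3 age means was 0.36 log2 units, or 0.68 without the third 42-week library.

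ENSGALG00000034821 had the narrowest range of age means among the members, 0.09 log2 units. Its values were 206, 219 and 204 FPKM at embryonic day 13, 191, 195 and 205 FPKM at 5 weeks, and 184, 216 and 199 FPKM at 42 weeks. The libraries of the 3 ages overlapped one another, and the whole span of the 9 libraries was 0.25 log2 units. The log2 difference for 42 weeks minus day 13 was -0.07 ± 0.15 (SE), an SE that takes in the spread of other genes of that level.

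**Figure D2:**
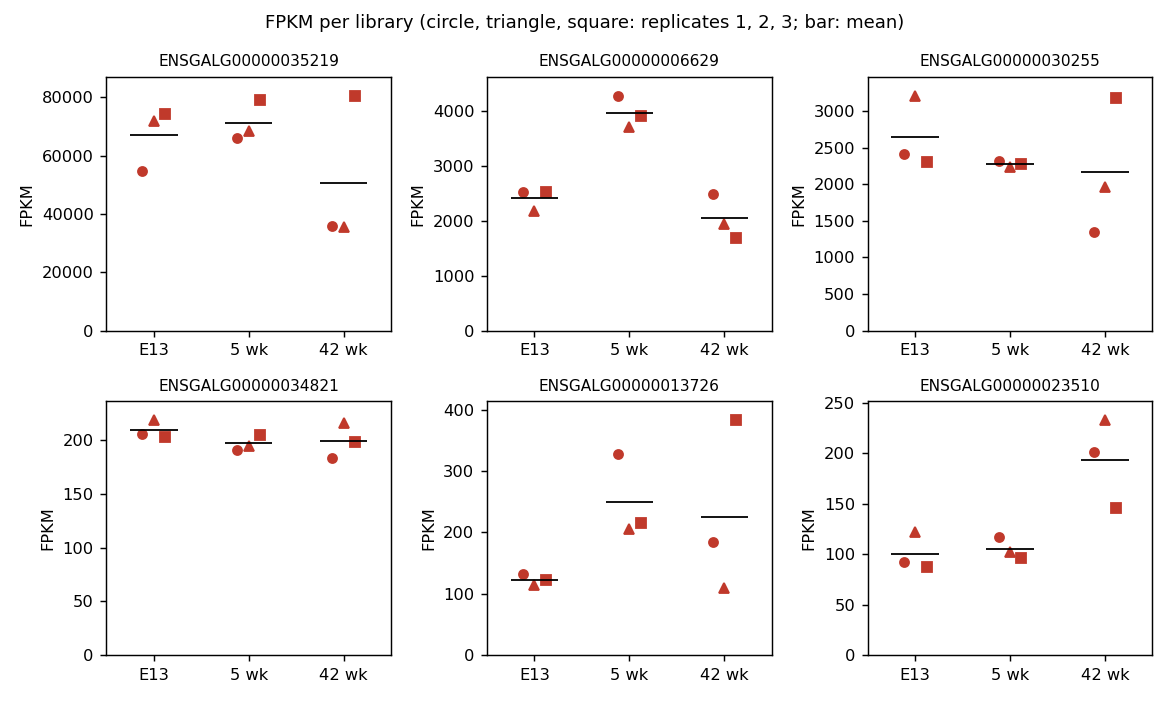
FPKM (y axis, linear from 0) of 6 members in each library at embryonic day 13, 5 weeks and 42 weeks; symbols mark replicates 1, 2 and 3 and bars the mean of an age. ENSGALG00000034821 stays between 184 and 219 FPKM, while the third 42-week library (square) of ENSGALG00000035219, ENSGALG00000030255 and ENSGALG00000013726 lies well above the other 42-week libraries.

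Both limits cut through genes with nearly equal values. Just inside the limit of the difference, ENSGALG00000013726 had a range of 0.99 log2 units, with 131, 114 and 122 FPKM at embryonic day 13, 328, 205 and 215 FPKM at 5 weeks, and 185, 110 and 383 FPKM at 42 weeks. Just outside it, ENSGALG00000010427 had a range of 1.01, with age means of 630, 317 and 359 FPKM in the same order of ages. Just inside the limit of the level, ENSGALG00000023510 had 91.9, 122 and 86.9 FPKM at embryonic day 13, 116, 102 and 95.7 FPKM at 5 weeks, and 202, 233 and 146 FPKM at 42 weeks, with a lowest age mean of 100.3 FPKM. Without the third 42-week library its range was 1.12 log2 units, which is outside the rule. Just outside it, ENSGALG00000003634 had a lowest age mean of 99.7 FPKM and a range of only 0.36. In each of the 4 genes the distance to the limit was smaller than the spread between libraries of an age.

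Together the members held 15.7% to 26.4% of a library's summed FPKM, and the largest part of that was ENSGALG00000035219. By age, the members' share was 20.2% ± 2.3 before hatching, 21.1% ± 1.4 in 5-week birds and 19.3% ± 6.1 in 42-week birds (SD, n = 3 each). ENSGALG00000035219 alone held 12.3% ± 2.1, 13.5% ± 1.2 and 11.4% ± 4.9 at these ages. The other 92 members held 7.86% ± 0.39, 7.61% ± 0.24 and 7.88% ± 1.25. Per library at 42 weeks, the members' share was 15.9%, 15.7% and 26.4%, and the third library was the highest of all 9. Without it the mean share at 42 weeks was 15.8%, of which ENSGALG00000035219 held 8.59%. The other 92 members held 6.99%, 7.35% and 9.31% in the 42-week libraries. Their mean at 42 weeks thus lay near those of the earlier ages with the third library, and without it the mean was 7.17%, below every embryonic and 5-week library. The summed FPKM of the table was 538521 to 551324 in embryonic libraries, 512028 to 535744 in those of 5 weeks and 402779 to 471062 in those of 42 weeks, the smallest of the 3 ages.

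The 174 genes that were as abundant but not kept held more of the signal than the members. Their share was 38.9% ± 1.3 before hatching, 42.2% ± 2.0 in 5-week birds and 27.7% ± 2.1 in 42-week birds (SD, n = 3 each). Most of them missed the rule between the end points: for 42 weeks minus day 13, 19 were higher and 121 lower by at least 1 log2 unit. For 5 weeks minus day 13 the numbers were 34 and 63, and for 42 weeks minus 5 weeks 9 and 66. Without the third 42-week library their share at 42 weeks was 26.5%. The rule set these genes apart because they differed between ages, so nothing is read from the change of their share.

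**Figure D3:**
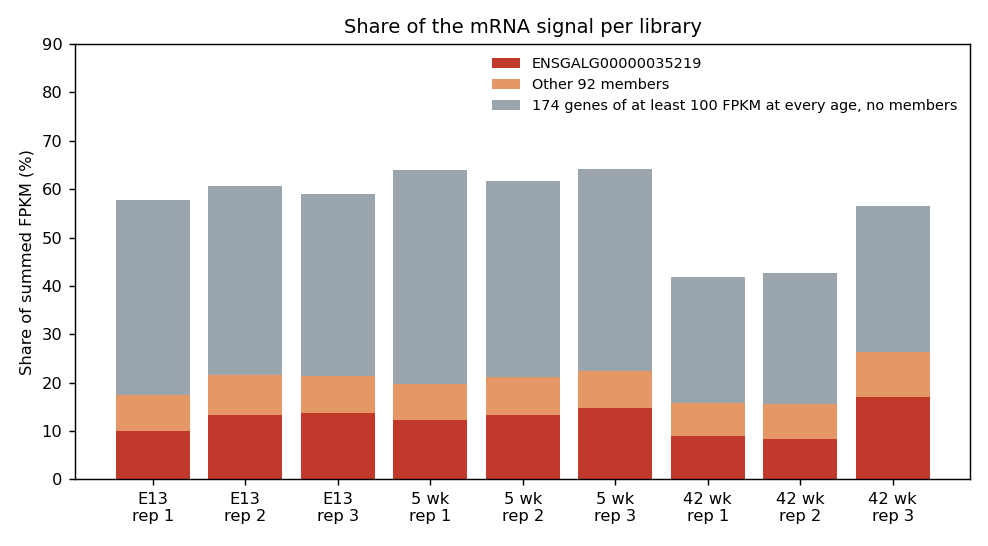
Share of the summed FPKM (y axis, %) in each of the 9 libraries, stacked for ENSGALG00000035219, the other 92 members and the 174 genes of at least 100 FPKM at every age that are no members. The members' part is 15.7% to 22.5% in 8 libraries and 26.4% in the third 42-week library.

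Within the allowed range, more members were lower than higher at the later age on the deposited scale, and the same held among the 11512 genes described below. For 42 weeks against embryonic day 13, 22 were higher and 71 lower, with a median log2 difference of -0.38. For 42 weeks against 5 weeks, 31 were higher and 62 lower (median -0.25), and for 5 weeks against day 13, 40 were higher and 53 lower (median -0.10). Over the 11512 genes that had at least 1 FPKM in at least 3 libraries, all 93 members among them, the medians were -0.61, -0.17 and -0.46 for the same comparisons. Of these genes 23.3%, 38.1% and 27.9% were higher at the later age, against 23.7%, 33.3% and 43.0% of the members. Without the third 42-week library the members' medians were -0.53 for 42 weeks against day 13, with 17 higher and 76 lower, and -0.46 for 42 weeks against 5 weeks, with 22 higher and 71 lower. Over the 11512 genes the medians were then -0.72 and -0.29. The share of these genes that were higher is given only with that library, so nothing is read from the counts without it. The median was -0.10 for 42 weeks against 5 weeks without the first 42-week library. That for 5 weeks against day 13 was -0.05 without the second embryonic library. The medians also move with the scaling of the libraries. After all libraries were shifted to the same median, the members' medians were 0.23, -0.12 and 0.37, and after quantile normalization 0.19, 0.15 and 0.13. The medians of the 11512 genes were then -0.004, -0.03 and 0.01, and -0.07, -0.05 and -0.04. The direction of the members as a group is therefore not fixed by these data. It flips in the comparisons with day 13 under both other scalings and in that of 42 with 5 weeks under quantile normalization. Against day 13 the members, limited by the rule on the deposited scale, fell less than the median gene. A shift to equal medians therefore raises them there, and the flip under median scaling is no separate result.

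By age, 47 members were highest at embryonic day 13, 33 in 5-week and 13 in 42-week birds, and 16, 24 and 53 were lowest at these ages. Among the 11512 genes, 65.8%, 20.1% and 14.1% were highest at day 13, 5 weeks and 42 weeks, and 17.0%, 30.3% and 52.7% were lowest. The order running downward from embryonic day 13 over 5 weeks to 42 weeks was found in 29 members, or 31.2%, and in 41.8% of all genes. A maximum at 5 weeks with a minimum at 42 weeks was found in 24 members, or 25.8%, and in 10.9% of all genes. Nothing is read from these shares, since the rule used the same age means. The counts are on the deposited scale, and without the third 42-week library 48, 36 and 9 members were highest and 12, 18 and 63 lowest at the 3 ages. Among the 11512 genes 66.9%, 21.8% and 11.4% were then highest and 15.1%, 25.1% and 59.7% lowest. Nothing is read from these values either.

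Inside the allowed range, the libraries of 2 ages did not overlap in a part of the members, as in many of all genes. For 5 weeks against day 13, 19 members (20.4%) lay wholly higher and 36 (38.7%) wholly lower at 5 weeks. Of all 11512 genes 16.4% lay wholly higher and 55.2% wholly lower. For 42 weeks against 5 weeks, 6 members (6.45%) lay wholly higher and 28 (30.1%) wholly lower (13.5% and 27.9% of all genes). For 42 weeks against day 13, 4 (4.3%) lay wholly higher and 36 (38.7%) wholly lower (11.9% and 57.2% of all genes). The rule used the same contrasts, so nothing is read from these values, and the comparisons share the libraries of an age. Without the third 42-week library 10 members lay wholly higher and 52 wholly lower at 42 weeks than at 5 weeks, and 8 and 58 than at day 13. The count of wholly higher members at 42 weeks was 13 against 5 weeks and 8 against day 13 without the first 42-week library, 10 against 5 weeks without the third 5-week library, and 11 against day 13 without the second embryonic library. After median scaling 31 members lay wholly higher and 1 wholly lower at 42 weeks than at day 13. Like the flip of the medians under that scaling, this is no separate result. The counts with a library left out or under another scaling are given without the share over all genes. With fewer libraries at an age, any gene can more easily fail to overlap. Nothing about the members is read from these counts either.

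The rule set no condition on the spread between libraries of 1 age, but it used means that hold each library. Without the third 42-week library 27 of the 93 members no longer met it. The members' spread at 42 weeks is thus not independent of the rule. Over 3 libraries the spread was widest at 42 weeks. The median SD of a member was 0.15 log2 units among embryonic libraries, 0.17 among those of 5 weeks and 0.38 among those of 42 weeks (n = 3 libraries each), and over all 11512 genes it was 0.15, 0.19 and 0.29. An SD over 2 libraries is not on the same footing as one over 3, so pairs are compared with pairs. The members' median SD was 0.16 over the first and second 42-week libraries, and 0.33 and 0.46 over the pairs that hold the third. Over the pairs of 5-week libraries it was 0.14, 0.17 and 0.14, and over those of embryonic libraries 0.11, 0.08 and 0.14. An SD above 0.5 at 42 weeks was found for 30 members, or 32.3%, and for 18% of all genes. Among the 174 abundant genes outside the set it was found for 30.5%, with a median SD of 0.35. Over the first and second 42-week libraries alone, 7 members, or 7.53%, had an SD above 0.5, and 7.33% of all genes. The 42-week libraries held 66.7% of the members' sum of squares within ages, and the third of them alone 37.4%. These parts were computed for the members alone, so they are not read as particular to them.

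The third 42-week library lay above the other 42-week libraries in most members. Its values exceeded both others in 62 members, or 66.7%, in 77.6% of the 174 abundant genes outside the set and in 71.4% of all 11512 genes. The median deviation from the mean of the other 42-week libraries was 0.54 log2 units for members, 0.42 for the 174 abundant genes outside the set and 0.34 for all genes. It was at least 1 in 19 members, or 20.4%, in 32 of the 174 abundant genes outside the set, or 18.4%, and in 7.87% of all genes. On the deposited scale the members' share is thus close to that of other abundant genes. After median scaling the members' median deviation was 0.18, with 4 members, or 4.30%, at 1 or more. This compares with 9.77% of the 174 abundant genes outside the set and 2.81% of all genes. After quantile normalization the members' median deviation was 0.11, also with 4 members at 1 or more, against 11.5% of the 174 and 3.20% of all genes. What sets this library apart was not tested. It entered the 42-week means that chose the members, so their deviation in it is not independent of the rule.

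**Figure D4:**
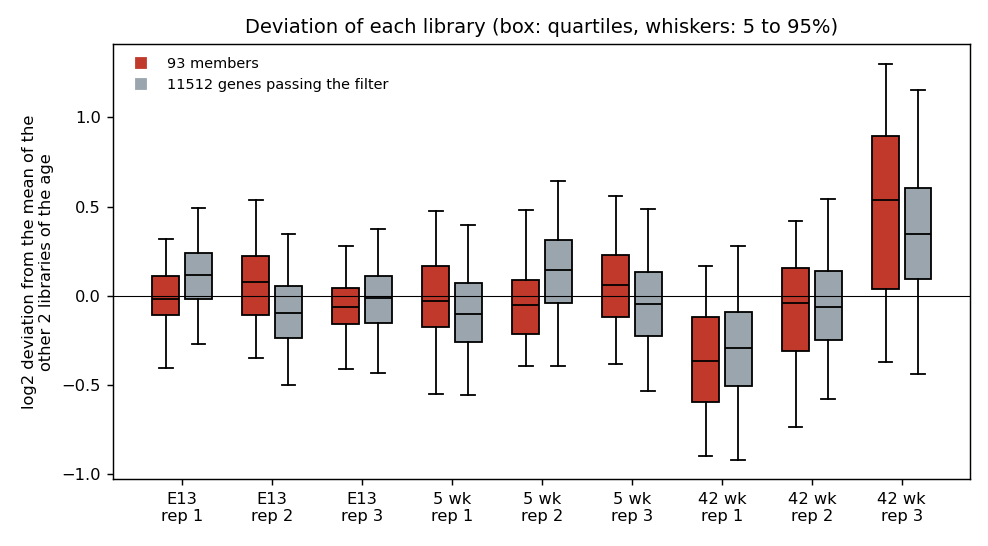
Log2 deviation (y axis) of each library from the mean of the other 2 libraries of its age, on the deposited scale, for the 93 members and for the 11512 genes passing the filter; boxes show quartiles and whiskers the 5 to 95% range. Members deviate most in the third 42-week library, with a median of 0.54, and lie low in the first, with a median of -0.37.

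Some members with a wide spread within an age, singled out after their values were seen and not by rank alone, showed more than 1 pattern. ENSGALG00000040573 had 159, 165 and 154 FPKM at embryonic day 13, 159, 329 and 340 FPKM at 5 weeks, and 163, 210 and 684 FPKM at 42 weeks. It was tight before hatching and spread afterwards, with an SD of 1.10 log2 units at 42 weeks, the widest of any member at any age, and 0.26 without the third library. ENSGALG00000035445 had 493, 193 and 343 FPKM at embryonic day 13, 134, 219 and 337 FPKM at 5 weeks, and 115, 139 and 302 FPKM at 42 weeks. It varied at every age, with SDs of 0.68, 0.67 and 0.73 log2 units, the widest of any member at day 13 and at 5 weeks, and its ages overlapped throughout. ENSGALG00000015143 had 2646, 3104 and 2952 FPKM at embryonic day 13, 1024, 2091 and 1653 FPKM at 5 weeks, and 1335, 1042 and 3116 FPKM at 42 weeks. Of its libraries after hatching, the third 42-week one alone reached the embryonic level. Without that library ENSGALG00000015143 and ENSGALG00000035445 leave the rule, with ranges of 1.29 and 1.33 log2 units.

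Among the libraries left out in turn, the third 42-week one changed the set most. Without it 70 genes met the rule, 66 of them among the 93. Of the 27 members lost, 17 differed by 1 or more between ages, 6 fell below 100 FPKM and 4 did both. Leaving out any other single library gave 88 to 103 genes, of which 84 to 91 were among the 93. After median scaling 124 genes met the rule and after quantile normalization 126, with 67 and 69 of the 93 among them, so that each of these scalings exchanged more genes than leaving out that library did.

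A smaller group kept its place under both scalings and every omission of a library. Under both other scalings and with each library left out in turn, 43 of the 93 members met the rule every time. Their means over the 9 libraries ran from 132 to 62915 FPKM, with a median of 275 FPKM, and the median range of their age means was 0.56 log2 units. In the third 42-week library their median deviation was 0.17. The selection of the 43 used these same values, with that library left out among others, so nothing is read from this deviation or range. ENSGALG00000035219, ENSGALG00000030255 and ENSGALG00000034821 were among the 43, and ENSGALG00000006629, ENSGALG00000013726 and ENSGALG00000023510 were not. The median of the 3 libraries in place of the mean was not among the settings that chose the 43. With it 77 genes met the rule, 71 of them among the 93. ENSGALG00000035219 did not meet it there, with medians of 71678 FPKM at embryonic day 13 and 35743 FPKM at 42 weeks.

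**Figure D5:**
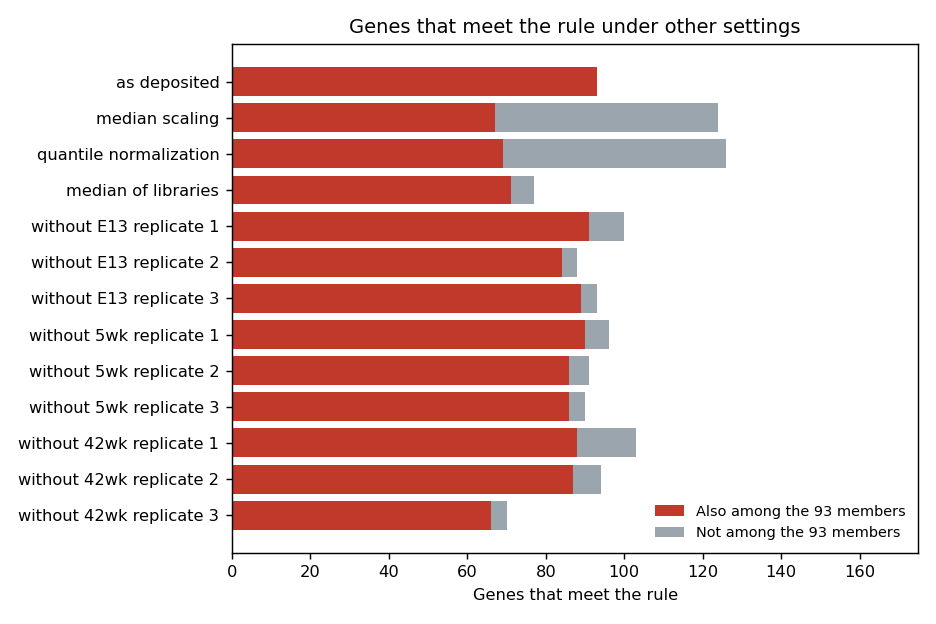
Number of genes that meet the rule (x axis) as deposited, under other scalings, with the median of the 3 libraries in place of the mean, and without each library in turn; the left part of a bar counts genes among the 93 members and the right part other genes. Both scalings bring in 57 other genes each, and leaving out the third 42-week library gives the shortest bar, with 66 members and 4 other genes.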

How the data were processed

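The authors deposited log2 values of FPKM per gene for the 9 libraries, 1 column each. They were read as log2(FPKM + 1), since the values leave a gap between 0 and 0.1 FPKM on that reading. The tools listed, per the submitters' processing notes, are Cufflinks 2.2.1, DESeq2, HISAT and StringTie 1.3.3. The role of each tool, the genome build and the annotation were not given in the sources used here. With no counts in the table, depth is unknown and error was taken from the spread between libraries, which the labels call biological replicates.

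From these values means, SDs, shares and overlaps were computed in Python 3.11.15. A limma 3.58.1 model in R 4.3.3 with 1 mean per age and a variance trend, fitted to the 11512 genes reaching 1 FPKM in 3 libraries or more, gave log2 differences, SEs and residual SDs, and no p-values. The SEs pool all ages. Rule, scalings and fit were tested on simulated data. With scaling, filter, offset or libraries changed, the 93 members were held fixed unless the rule itself is named as repeated.

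Named genes were the 3 most abundant members, the steadiest, and those nearest to each limit; exceptions are stated. The rule for genes without symbols allowed at most 4 for levels and 4 near the limits. Members and lists were chosen with earlier results of these data known. The 23 gene lists and 6 promoter motifs needed symbols and were not used here, nor was the lncRNA table.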

Additional observations from a re-analysis of the deposited data

How the results depend on the processing

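The number of genes meeting the rule followed its limits: 210 at a level of 50 FPKM, 41 at 200 FPKM, 20 at a difference of 0.5 and 157 at 1.5. It was 70 to 103 with 1 library left out, and all 93 met it with an offset of 0.1 FPKM. Genes that reach 10000 FPKM include ENSGALG00000035219, the most abundant member. Without these genes the other members held 10.9%, 11.9% and 13.0% of the remaining signal at embryonic day 13, 5 weeks and 42 weeks. The 42-week value includes the third 42-week library and is not given without it, so no trend with age is read from these shares. Of the whole signal the other members held 7.86%, 7.61% and 7.88%, an alternative chosen after seeing the data. Without the third 42-week library their share of the whole signal at 42 weeks was 7.17%. The share of all 93 members at 42 weeks was 15.8% to 21.1% with 1 library left out.

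Median scaling turned the median difference to 0.37 for 5 weeks minus day 13 and to 0.23 for 42 weeks minus day 13, and quantile normalization to 0.13 and 0.19, and to 0.15 for 42 minus 5 weeks. Members wholly higher at 5 weeks than at day 13 then numbered 49 and 32 under the 2 scalings, and those wholly lower 5 and 17. At 42 weeks against 5 weeks 11 and 25 were wholly higher, and 9 wholly lower under quantile normalization. At 42 weeks against day 13, 31 and 29 were wholly higher and 1 and 5 wholly lower. With 1 library left out, 42 weeks against 5 weeks gave 6 to 13 wholly higher and 28 to 52 wholly lower, and 42 weeks against day 13 gave 4 to 11 and 38 to 58. The upper counts of lower members, 52 and 58, are those without the third 42-week library. Without it the members' residual SD was 0.18, against 0.28 with it. The above counts of wholly higher or lower members are given without the share over all genes. Nothing about the members is read from them.

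The residual SD was 0.27 with a replicate block. Same-numbered libraries of different ages correlated at -0.05 to 0.14 in their deviations from the age means, across genes. Differently numbered ones correlated at -0.13 to 0.08. Deviations within an age are tied to one another, so these values cannot settle whether the numbers pair libraries. Depth is unknown, so it sets no stated limit, and genes present at a single age may not be listed.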
